A study of Homo sapiens with 6 samples.

Results

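A set of 9 genes of superoxide and peroxide removal was followed in K562 cells, an established line derived from chronic myeloid leukemia at its blast stage, after knockdown of METTL3 or METTL14, the catalytic subunit and the RNA-binding partner of the m6A methyltransferase. The genes were chosen by name: SOD1, SOD2, CCS, CAT, GPX1, GPX4, GPX7, GPX8 and UCP2. All 9 of 9 had a row among the 61661 rows of the deposited count table, and 7 of 9 passed the filter on low counts. The control cells (shCTR, labelled WT) carried a lentivirus with a nonsense sequence and the shMETTL3 cells an shRNA against METTL3, both driven by a U6 promoter beside GFP and puromycin resistance. The shMETTL14 cells are given in the labels as K562 with METTL14 knockdown, and their vector is not given in the sources used here. Each group had 2 libraries, 6 in all, made from poly(A)-selected RNA of cells in logarithmic growth. The sources name neither separate cultures nor clones, so p-values measure the spread between these libraries, which may be technical.

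Cells that respire produce superoxide. Superoxide dismutases turn it into hydrogen peroxide, SOD1 with copper and zinc mainly in the cytosol and SOD2 with manganese in mitochondria, and CCS is the chaperone that loads copper into SOD1. Catalase (CAT), a heme enzyme of peroxisomes, and the glutathione peroxidases (GPX) then remove peroxide. GPX1 is the main cytosolic peroxidase, GPX4 reduces lipid peroxides in membranes and protects cells from ferroptosis, and GPX7 and GPX8 act in the endoplasmic reticulum. UCP2 is a carrier of the inner mitochondrial membrane counted among the uncoupling proteins, which are thought to limit superoxide formation. Because the study asked whether PGC-1α (PPARGC1A) and METTL3 act on oxidative stress in leukemia cells, and measured dismutase, catalase, GPX1 and UCP2 mRNA by PCR in K562 cells with PGC-1α knockdown, the same genes were examined here in the RNA-seq libraries.

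The targeted genes followed the labels. METTL3 had 1788 and 1728 reads in shCTR and 1031 and 938 reads in shMETTL3, a log2 fold change of -0.87 (SE 0.0783, adjusted p = 3.44e-07). The 2 control libraries held 656 and 655 METTL14 reads and the shMETTL14 libraries 375 and 404, a log2 fold change of -0.76 (SE 0.0886, adjusted p = 1.40e-05). PPARGC1A had 2 to 7 reads in every library and was not tested. Library totals ran from 19292574 to 20115304 reads. All 10 of 10 K562 markers (embryonic and fetal globins, GATA1, KLF1 and others) were above the floor of 3 reads, and their summed level was 1958 to 1965 CPM in shCTR, 2143 to 2181 in shMETTL3 and 2014 to 2022 in shMETTL14. Of 10 markers of other blood cells, 5 (CD3E, MS4A1, CD14, ELANE and MPO) were at or below the floor in every library, and the summed level was 48.7 to 51.1, 26.0 to 26.3 and 67.6 to 73.5 CPM. Of 6 epithelial and stromal markers, 2 (KRT5, at 0 throughout, and COL1A2) were at or below the floor, and the sums were 57.7 to 58.6, 43.2 to 43.9 and 45.2 to 46.3 CPM. These sums differed between the groups, and their part in the results below was not tested.

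The paper places m6A sites mainly in the motif RRACH (R is A or G, H is A, C or U). GGACT, a form of RRACH, was searched on the sense strand of each reference transcript (GENCODE 29, GRCh38). The opposite strand is not in the mRNA and was not searched, nor were the other forms of RRACH. GGACT occurred once in SOD1, 6 times in SOD2 (all in the 3′ UTR of a transcript of 14266 nt), 4 times in CCS, 3 times in CAT, once each in GPX1, GPX7 and GPX8, and 0 times in GPX4 and UCP2. A count of 0 covers this form only. Of 12537 tested coding genes, 91.19% held GGACT in their reference transcript, at a median of 0.938 per kb, so that most genes of any function have it. Per kb, the members that hold GGACT ran from 0.421 in SOD2 to 2.80 in CCS, so SOD2 has the most copies by number only. For SOD2, the copy nearest the stop codon is printed to show the form of the motif. The window printed has 10 bases on either side and the motif in capitals, 5′ to 3′ in the mRNA. It lies at chr6:159682180-159682204 in the 3′ UTR in exon 5.
SOD2: tatactttggGGACTtgtagggatg
No methylation was measured in these libraries, so the matches describe sequence only.

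Per transcript length, the counted level was highest for SOD1 and lowest for GPX1 and GPX7 among the members. On the scale of CPM (counts scaled to the library total by TMM) per kb of the reference transcript, the shCTR mean was 350.1 ± 7.96 (SD, n = 2) for SOD1, 170.2 ± 19.6 for GPX4, 86.4 ± 5.22 for CAT, 39.3 ± 1.67 for CCS, 31.9 ± 2.64 for UCP2, 6.66 ± 0.00916 for SOD2 and 5.14 ± 0.424 for GPX8. SOD1, GPX4 and CAT were each separated from the next gene in all 6 libraries, whereas CCS and UCP2 overlapped (37.3 to 40.5 against 30.1 to 42.4), and so did SOD2 and GPX8 (5.84 to 6.67 against 4.84 to 6.57). The place of SOD2 depends on which transcript the cells use: per kb of its shortest coding transcript, of 815 nt, its shCTR mean would be 117 and not 6.66. GPX1 and GPX7 were at the bottom, at 0.133 and 0.0213 CPM per kb in shCTR. For GPX1 this is the level of its row only: how reads that also match its processed copies were counted is not stated.

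**Figure D1:**
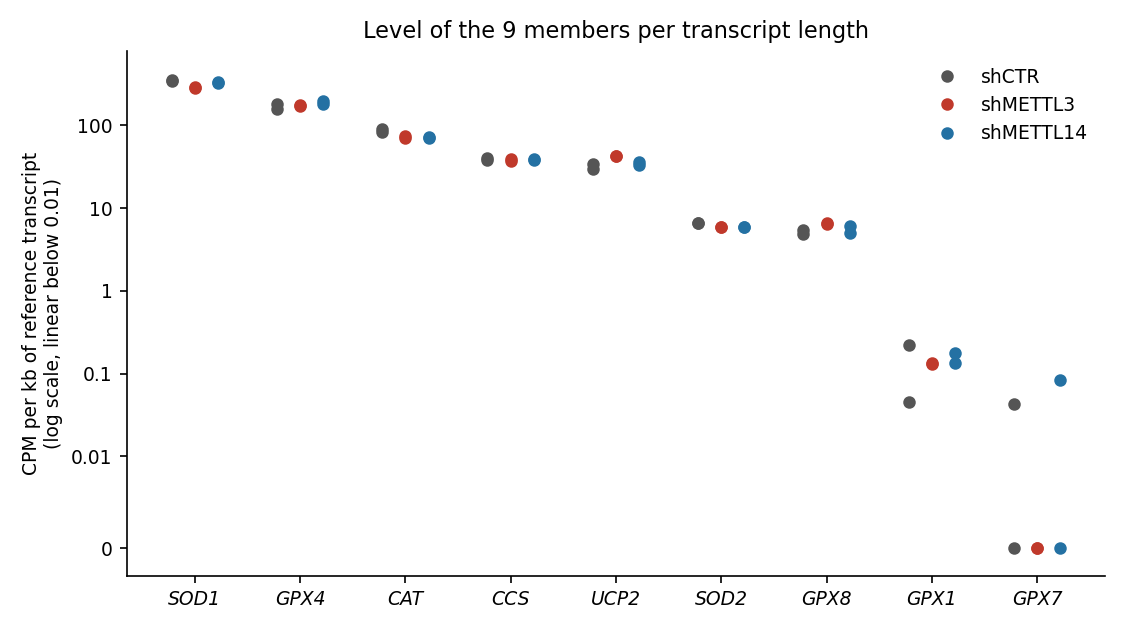
Level of the 9 members in each of the 6 libraries, as CPM per kb of the reference transcript on a log axis that is linear below 0.01, with 1 point per library and colors for the groups. SOD1 lies highest at 286 to 356, GPX1 and GPX7 lie below 0.22, and SOD2 is drawn with its transcript of 14266 nt. How reads that match both GPX1 and its processed copies were counted is not stated.

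Among the tested members, shMETTL3 cells had less SOD1 and CAT mRNA and more UCP2 mRNA than shCTR cells, while SOD2, CCS, GPX4 and GPX8 did not pass the threshold. With edgeR's quasi-likelihood test and Benjamini-Hochberg adjustment over all 17686 tested genes, 3 of 7 tested members were called, 1 higher and 2 lower. Over all tested genes 16.5% were called in this comparison, 8.73% higher and 7.73% lower. In shMETTL14 cells 1 of 7 was called, CAT, which was lower, where 6.69% of all tested genes were called, 3.43% higher and 3.26% lower. Between the knockdowns 2 of 7 were called, SOD1 lower and UCP2 higher in shMETTL3, where 12.1% of all tested genes were called, 6.65% higher and 5.49% lower. The median log2 fold change of the 7 tested members was -0.041, -0.023 and 0.016 in these 3 comparisons, beside 0.0030, -0.00014 and -0.0017 over all tested genes. In bulk RNA, fewer cells of a type and less RNA per cell cannot be told apart, and TMM scaling measures each gene against the bulk of the genes in its library. Both knockdowns were compared with the same 2 shCTR libraries.

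**Figure D2:**
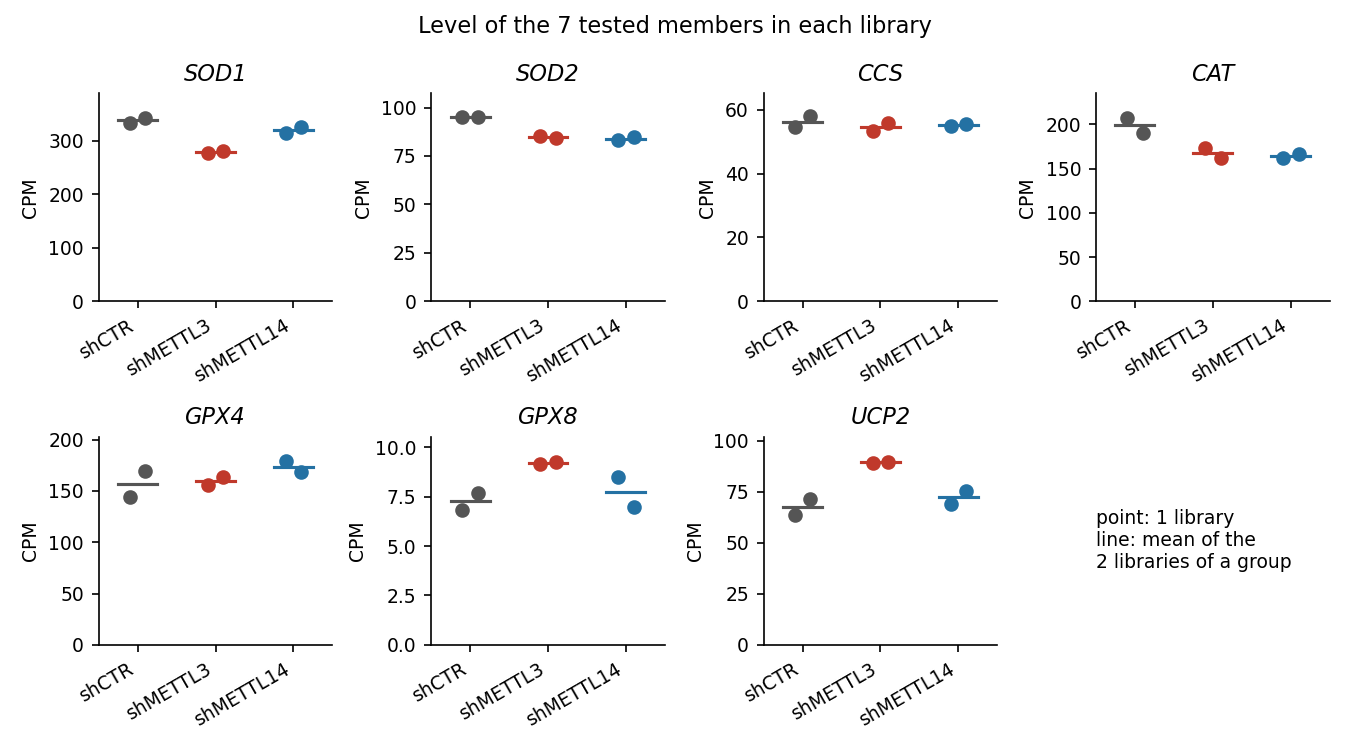
CPM (TMM-scaled) of the 7 tested members, with 1 point per library and a line at the mean of the 2 libraries of a group, on axes that start at 0. The shMETTL3 points lie below both other groups for SOD1 (277 to 281 CPM) and above both for UCP2 (89.1 to 89.7 CPM), and both knockdowns lie below shCTR for CAT.

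SOD1 (ENSG00000142168; chromosome 21, 31659622 to 31668931, plus strand) had 6576 and 6579 reads in shCTR, 5436 and 5642 in shMETTL3, and 6170 and 6389 in shMETTL14. That is 338 ± 7.68, 279 ± 3.15 and 320 ± 8.41 CPM (SD, n = 2 each). Both shMETTL3 libraries were below all 4 others, and the shMETTL14 libraries lay between the other groups without overlap. The log2 fold change from shCTR was -0.28 in shMETTL3 (SE 0.0571, adjusted p = 0.00226), a level 0.825 of the control. In shMETTL14 it was -0.08 (SE 0.0569, adjusted p = 0.462), with a 95% confidence interval from -0.20 to 0.04. The direct difference between the knockdowns was -0.20 (SE 0.0571, adjusted p = 0.0268). The shMETTL3 call held with each library left out in turn (log2 fold change -0.30 to -0.26, adjusted p at most 0.0472). The direct difference passed the threshold only while both libraries of both knockdowns were kept: without shMETTL3 replicate 1 or 2 it was -0.18 or -0.21 (adjusted p = 0.214 or 0.175), and without shMETTL14 replicate 1 or 2 it was -0.23 or -0.17 (adjusted p = 0.0965 or 0.241). These differences were close in size to that with all libraries. With library size alone as scaling it was -0.17 (adjusted p = 0.0609).

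SOD1 has processed copies in the genome, and 1 of them carried many reads. SOD1P3 (ENSG00000253651), whose annotated sequence of 454 nt is 82.8% identical to the SOD1 transcript, had 1297 and 1182 reads in shCTR, 475 and 531 in shMETTL3, and 673 and 702 in shMETTL14. SOD1P1 and SOD1P2 had 0 reads in every library. SOD1P3 is no member and was named after its values were seen. For each 100 reads on SOD1 there were 19.7 and 18.0 on SOD1P3 in shCTR, 8.74 and 9.41 in shMETTL3, and 10.9 and 11.0 in shMETTL14, so the ratio was lower in both knockdowns than in either control library. The log2 fold change of SOD1P3 was -1.33 in shMETTL3 (SE 0.0792, adjusted p = 1.24e-09), larger in size than that of SOD1, and -0.86 in shMETTL14 (SE 0.0766, adjusted p = 5.37e-07), where SOD1 itself was not called.

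The long noncoding gene LINC00861, on the same strand 611 bases from SOD1P3, was also named after its values were seen. It had 4521 and 3394 reads in shCTR, 1761 and 1684 in shMETTL3, and 2257 and 1980 in shMETTL14. Its log2 fold changes were -1.23 and -0.91 in the knockdowns (SE 0.0929 and 0.0916, adjusted p = 3.59e-08 and 2.76e-06). SOD1P3 reads per 100 LINC00861 reads were 28.7 and 34.8 in shCTR, 27.0 and 31.5 in shMETTL3, and 29.8 and 35.5 in shMETTL14, so this ratio overlapped between all groups, unlike the ratio to SOD1. Whether the reads counted on SOD1P3 came from SOD1 mRNA or from transcription across the copy was not tested. With the reads of all copies added to SOD1, its log2 fold change was -0.40 in shMETTL3 (adjusted p = 6.79e-05) and -0.18 in shMETTL14 (adjusted p = 0.0621), and the calls of SOD1 were the same as without them.

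**Figure D3:**
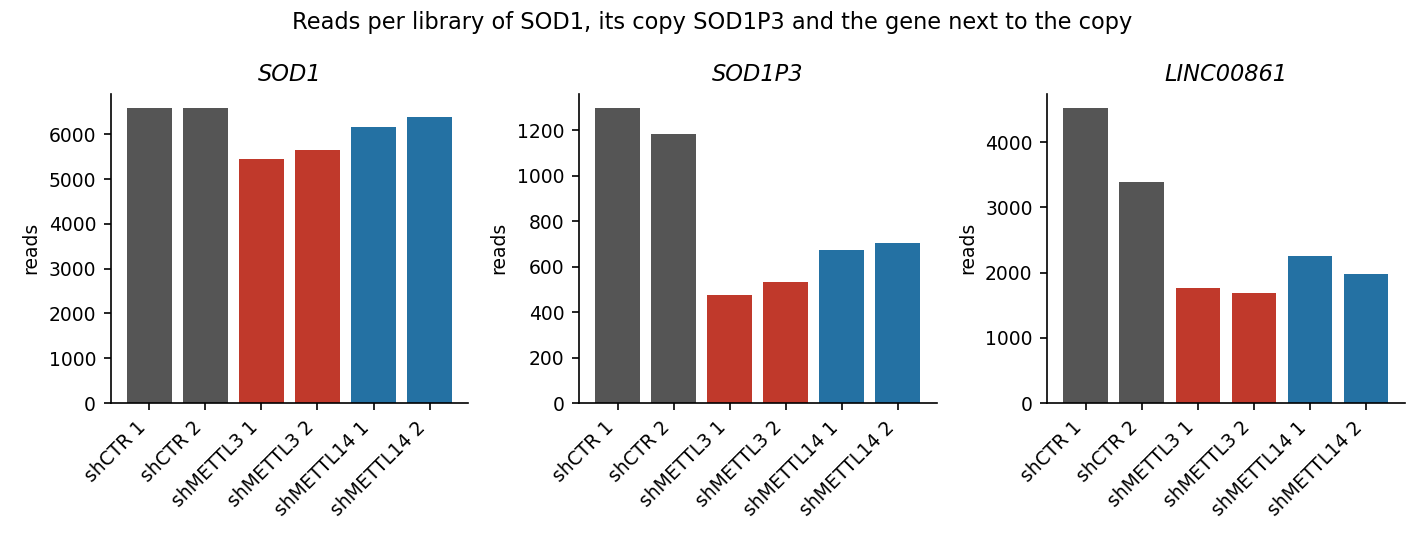
Reads counted in each library on SOD1, on its processed copy SOD1P3 and on LINC00861, the neighbouring gene of the copy, as bars from 0 with a separate axis for each gene. SOD1 is at 6576 and 6579 reads in shCTR and at 5436 and 5642 in shMETTL3, while SOD1P3 and LINC00861 are lower in both knockdowns than in both control libraries.

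SOD2 (ENSG00000112096; chromosome 6, 159669057 to 159745186, minus strand) had 1877 and 1822 reads in shCTR, 1676 and 1696 in shMETTL3, and 1637 and 1660 in shMETTL14. Its level was 95.1 ± 0.131 CPM in shCTR, 84.9 ± 0.563 in shMETTL3 and 84.0 ± 0.965 in shMETTL14 (SD, n = 2 each), so every knockdown library was below both controls. The log2 fold changes of -0.16 (SE 0.0632, adjusted p = 0.0853) and -0.18 (SE 0.0632, adjusted p = 0.101) did not pass the threshold, and the 95% confidence intervals ran from -0.29 to -0.03 and from -0.31 to -0.05. With a correction for GC content and length both values passed, at -0.17 (adjusted p = 0.0420) and -0.205 (adjusted p = 0.0303). The correction used the longest transcript of each gene. Over the 9 alternatives that left out no library of the compared groups, SOD2 passed in 2 for each knockdown. Its values there ran from -0.17 to -0.11 in shMETTL3 and from -0.205 to -0.15 in shMETTL14. SOD2 shares exon sequence on the opposite strand with WTAP, a further subunit of the methyltransferase complex, and whether reads were counted by strand is not stated. WTAP had 1302 and 1328 reads in shCTR, 1150 and 1225 in shMETTL3, and 1334 and 1366 in shMETTL14, with log2 fold changes of -0.18 (adjusted p = 0.0808) and 0.02 (adjusted p = 0.882) beside the -0.16 and -0.18 of SOD2. The part of WTAP reads in the SOD2 count was not tested.

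CCS (ENSG00000173992; chromosome 11, 66592821 to 66606019, plus strand) was at nearly the same level in every group. It had 1077 and 1108 reads in shCTR, 1049 and 1119 in shMETTL3, and 1080 and 1090 in shMETTL14, and all groups overlapped. The log2 fold change was -0.04 in shMETTL3 (95% confidence interval -0.19 to 0.10, adjusted p = 0.738) and -0.02 in shMETTL14 (-0.17 to 0.12, adjusted p = 0.894). SOD1 reads per CCS read, a ratio free of any scaling, were 6.11 and 5.94 in shCTR, 5.18 and 5.04 in shMETTL3, and 5.71 and 5.86 in shMETTL14. The client of the chaperone thus had fewer reads per chaperone read in both shMETTL3 libraries than in the other 4.

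CAT (ENSG00000121691; chromosome 11, 34438925 to 34472062, plus strand) was lower in both knockdowns. It had 4100 and 3647 reads in shCTR, 3398 and 3257 in shMETTL3, and 3180 and 3264 in shMETTL14, or 199 ± 12.0, 168 ± 7.54 and 164 ± 3.29 CPM (SD, n = 2 each). The 2 control libraries were both above all 4 knockdown libraries but stood apart from each other by more than the libraries of either knockdown did. The log2 fold change was -0.25 in shMETTL3 (SE 0.0640, adjusted p = 0.0116) and -0.28 in shMETTL14 (SE 0.0641, adjusted p = 0.0113). The knockdowns differed from each other by 0.03 (95% confidence interval -0.10 to 0.16, adjusted p = 0.822). The calls did not hold with every library left out. Both were lost without shCTR replicate 1, where the values were smaller in size, at -0.19 in shMETTL3 and -0.215 in shMETTL14. The shMETTL3 call was also lost without shMETTL3 replicate 2 (-0.20). The shMETTL14 call was lost without either of its own libraries, at values close to that with all libraries (-0.26 and -0.30). These fits have fewer libraries.

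GPX4 (ENSG00000167468; chromosome 19, 1103926 to 1106791, plus strand) had the highest counted level of the GPX members and was called in no comparison. It had 2840 and 3238 reads in shCTR, 3067 and 3286 in shMETTL3, and 3518 and 3300 in shMETTL14. The control libraries, at 144 and 169 CPM, were farther apart than those of any other group and spanned both shMETTL3 libraries. The log2 fold change was 0.03 in shMETTL3 (SE 0.0726, adjusted p = 0.810) and 0.15 in shMETTL14 (SE 0.0724, adjusted p = 0.241). The values depended on which control library was kept: without shCTR replicate 1 they were -0.083 in shMETTL3 and 0.038 in shMETTL14 (adjusted p = 0.823 for the latter), and without shCTR replicate 2 they were 0.15 and 0.27 (adjusted p = 0.0116 for the latter, which then passed).

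GPX8 (ENSG00000164294; chromosome 5, 55160118 to 55167071, plus strand) was expressed at a low level. It had 135 and 147 reads in shCTR, 180 and 186 in shMETTL3, and 167 and 137 in shMETTL14. Both shMETTL3 libraries were above the other 4, with a log2 fold change of 0.35 (SE 0.146, adjusted p = 0.115) that did not pass the threshold, and that did pass with the GC and length correction (0.42, adjusted p = 0.0476). In shMETTL14 it was 0.09 (SE 0.149, adjusted p = 0.778), with groups that overlapped. GPX7 (ENSG00000116157; chromosome 1, 52602372 to 52609051, plus strand), the related peroxidase of the same compartment, had 0 and 1 reads in shCTR, 0 and 0 in shMETTL3, and 0 and 2 in shMETTL14, all at or below the floor of 3 reads.

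GPX1 (ENSG00000233276; chromosome 3, 49357171 to 49358600, minus strand) had 5 and 1 reads in shCTR, 3 and 3 in shMETTL3, and 3 and 4 in shMETTL14, and was not tested. Its processed copy GPX1P1 (ENSG00000197582), with 606 nt of which 97.2% are identical to the GPX1 transcript, had more: 30 and 38 reads in shCTR, 40 and 42 in shMETTL3, and 36 and 46 in shMETTL14. The other copy, GPX1P2, had 0 reads. In GENCODE 29 the row of GPX1 is typed as a polymorphic pseudogene and not as a coding gene. How reads with several matches and rows of this gene type were counted is not stated, and their part in the low GPX1 count was not tested. GPX1P1 was not called (log2 fold change 0.24 and 0.26, SE 0.270 each, adjusted p = 0.596 and 0.648). The study's PCR primers for GPX1 show how close the copies are: both match GPX1, GPX1P1 and GPX1P2 without a mismatch, with the reverse primer across the junction of exons 1 and 2 of GPX1, which the processed copies hold without the intron.
GPX1 forward: ccgggactacacccagatga
GPX1 reverse: cttggcgttctcctgatgcc

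UCP2 (ENSG00000175567; chromosome 11, 73974667 to 73983307, minus strand) had the largest fold change of the tested members. It had 1255 and 1367 reads in shCTR, 1751 and 1799 in shMETTL3, and 1361 and 1478 in shMETTL14, or 67.5 ± 5.58, 89.4 ± 0.367 and 72.3 ± 4.33 CPM (SD, n = 2 each). Both shMETTL3 libraries were above all 4 others, and shMETTL14 overlapped shCTR. The log2 fold change was 0.41 in shMETTL3 (SE 0.0722, adjusted p = 0.000666), a level 1.33 times that of the control. In shMETTL14 it was 0.10 (SE 0.0730, adjusted p = 0.470), with a 95% confidence interval from -0.05 to 0.25. The direct difference between the knockdowns was 0.31 (SE 0.0718, adjusted p = 0.00706). The shMETTL3 call held with each library left out in turn (0.32 to 0.49, adjusted p at most 0.0138). The difference between the knockdowns lost the threshold without shMETTL3 replicate 1 or 2, at nearly the same size (0.31 and 0.31, adjusted p = 0.0575 and 0.0702), and without shMETTL14 replicate 1 (0.24, adjusted p = 0.171).

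**Figure D4:**
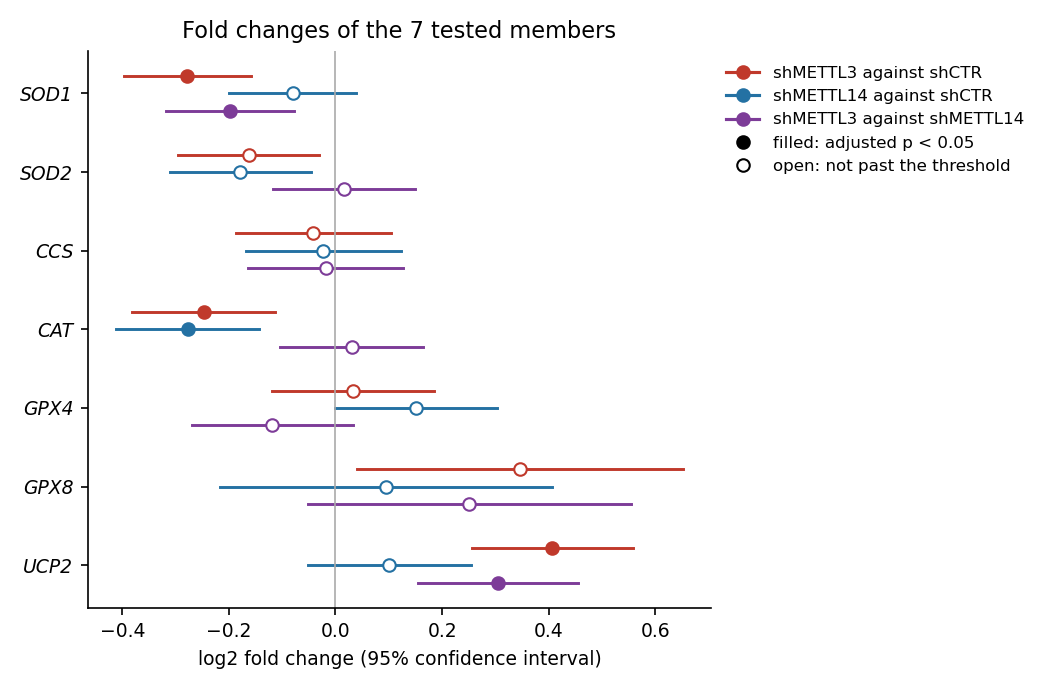
Log2 fold change of the 7 tested members in the 3 comparisons, with bars for the 95% confidence interval and filled points where the adjusted p was under 0.05. UCP2 lies farthest from 0, at 0.41 in shMETTL3 against shCTR, CAT is filled in both comparisons with shCTR, and the intervals of CCS span 0 in all 3.

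Ratios of reads within a library need no scaling. UCP2 reads per SOD1 read were 0.191 and 0.208 in shCTR, 0.322 and 0.319 in shMETTL3, and 0.221 and 0.231 in shMETTL14, the highest in both shMETTL3 libraries. GPX4 reads per CAT read were 0.693 and 0.888 in shCTR, 0.903 and 1.01 in shMETTL3, and 1.11 and 1.01 in shMETTL14, so each knockdown library was above both controls. SOD1 reads per SOD2 read were 3.50 and 3.61 in shCTR, 3.24 and 3.33 in shMETTL3, and 3.77 and 3.85 in shMETTL14, with shMETTL3 below and shMETTL14 above the controls. SOD1 reads per CAT read overlapped between shCTR (1.60 and 1.80) and shMETTL3 (1.60 and 1.73), and were 1.94 and 1.96 in shMETTL14. UCP2 and SOD1 were the called members with the largest rise and the largest fall in shMETTL3, so their ratio repeats those changes. These ratios are descriptions and were given no test.

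Of the other dismutases, peroxidases and uncoupling proteins, several were at or near 0, while the ADP/ATP carriers were expressed. SOD3, the extracellular dismutase, had 0 or 1 reads, GPX6 0 or 1 and UCP1, the uncoupling protein of brown fat, 0 or 1 in every library. GPX3, the peroxidase of plasma, was the 1 of 5 other family genes that was tested, with 8 to 15 reads, and was not called. Of 8 other uncoupling proteins and ADP/ATP carriers, 6 were tested and 0 were called in each comparison by edgeR, with 0 at an unadjusted p under 0.05 and 0 by DESeq2. Among these carriers UCP2 was thus the 1 that passed in shMETTL3. UCP3 had few reads, 11 and 9 in shCTR, 15 and 17 in shMETTL3, and 12 and 11 in shMETTL14. Its log2 fold change in shMETTL3 was 0.64 (SE 0.434, adjusted p = 0.340), beside 0.41 for UCP2. With so large an SE, the test cannot decide whether UCP3 rose as UCP2 did. The other tested carriers ran from -0.13 (SLC25A4) to -0.013 (SLC25A5) there. The difference between UCP2 and the others was not tested.

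Genes that supply the substrates and metals of these enzymes were examined as lists, whose counts are small and describe the lists only. Of 10 genes for glutathione supply, 1 was higher and 3 were lower in shMETTL3, where 8.73% of all tested genes were higher and 7.73% lower, and DESeq2 called 4 as well. GCLC, the catalytic subunit of the enzyme that limits glutathione synthesis, was lower (log2 fold change -0.43, SE 0.105, adjusted p = 0.00813), and CHAC1, which degrades glutathione, was higher (0.34, SE 0.0877, adjusted p = 0.0122). Of 6 tested genes of copper supply, the cofactor of SOD1, 2 were lower in shMETTL3, ATP7B and COX17. The copper exporter ATP7B was at -0.50 (adjusted p = 8.01e-05) and COX17, which brings copper to cytochrome oxidase, at -0.35 (adjusted p = 0.0110). DESeq2 called 1 gene of the list there, and 7.73% of all tested genes were lower. In shMETTL14 1 of these 6 was higher, the exporter ATP7A (0.34, adjusted p = 0.0180), where 3.43% of all tested genes were higher. The 7 genes of selenoprotein synthesis, on which GPX1 and GPX4 depend, had 0 calls by edgeR and DESeq2 in each comparison, with 3, 1 and 0 at an unadjusted p under 0.05. The list medians of log2 fold change in shMETTL3 were -0.06 for glutathione supply, -0.18 for copper supply and -0.00040 for selenoprotein synthesis, beside 0.0030 over all tested genes.

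Genes around catalase and GPX4 were examined in the same way. Of 13 genes of peroxisome import, which brings catalase to its organelle, PEX6 was higher in shMETTL3 (0.25, adjusted p = 0.0219, not called by DESeq2) and in shMETTL14 (0.29, adjusted p = 0.0182). Of 10 tested genes of ferroptosis around GPX4, 1 was lower in shMETTL3, ACSL4, which prepares the lipids that peroxidize (-0.23, adjusted p = 0.0314, not called by DESeq2). In shMETTL14 1 was lower, the ferritin light chain FTL (-0.36, adjusted p = 0.000233). FTL has processed copies in the genome, which were not examined here, and how reads that match both were counted is not stated. Over all tested genes 7.73% were lower in shMETTL3 and 3.26% in shMETTL14. Between the knockdowns 3 of these 10 were called, where 12.1% of all tested genes were, with 1 higher in shMETTL3, FTL (0.37, adjusted p = 9.35e-05), and 2 lower, among them ACSL4 (-0.29, adjusted p = 0.00781), and DESeq2 called 3 as well. Of 9 tested genes that produce superoxide or peroxide, 2 were called higher in shMETTL3, NCF4 and MAOA, where 8.73% of all tested genes were higher. They had 3 to 12 and 6 to 22 reads. Both fall under the minimum of 10 reads and are named as the only calls of the list in that comparison. DESeq2 called 0 of the 9 there. Between the knockdowns 2 of these 9 were lower in shMETTL3, CYBB, the phagocyte NADPH oxidase (-0.46, adjusted p = 0.0183), and ERO1A (-0.24, adjusted p = 0.0326). Over all tested genes 5.49% were lower there, and DESeq2 called 0 of the list in this comparison too.

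Of 15 tested regulators of antioxidant genes, 3 were higher and 0 lower in shMETTL3. Over all tested genes 8.73% were higher and 7.73% lower there, 16.5% in either direction, and a count this small describes the list only. In shMETTL14 0 of the list were called by edgeR and by DESeq2, with 1 at an unadjusted p under 0.05. FOXO3, a transcription factor known to raise SOD2 and catalase, was higher (0.31, SE 0.0787, adjusted p = 0.00965). SOD2 and CAT were at -0.16 and -0.25 in the same comparison, and a link between them and FOXO3 mRNA was not tested. NFE2L1, a relative of NRF2, was higher too (0.29, SE 0.0593, adjusted p = 0.00239), and also higher in shMETTL3 than in shMETTL14 (0.29, adjusted p = 0.00265). The list medians were 0.012 in shMETTL3 and 0.023 in shMETTL14.

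The genes most like each called member were found by the root mean square difference of log2 CPM, centred on the shCTR mean, over the 6 libraries, among 13353 tested genes with at least 10 reads in every library. Nearest to SOD1 were EI24 (0.0137) and EIF4B (0.0190), to CAT were PATL1 (0.0238) and AREL1 (0.0283), and to UCP2 were SWI5 (0.0308) and PCED1A (0.0315). EI24 is a p53-induced gene and EIF4B a translation initiation factor. The measure is a description and was given no test.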

How the data were processed

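RNA-seq of 6 K562 libraries was analysed, 2 each of shCTR, shMETTL3 and shMETTL14 cells, grouped by the submitters' labels. The authors deposited 1 table of raw counts, in which each value is the number of reads on a gene as a whole number without scaling. The submitters' processing notes name HTSeq 0.6.1 and hg38, with no role given; the aligner, the annotation, strand and the treatment of reads with several matches are not given in the sources used here. The library with the lowest total had 19292574 counts and the highest 20115304. Of each library, 0.635% to 0.703% of reads fell on 986 identifiers outside the annotation, without a name, which stayed in the totals and the tests. No molecular identifiers are named, so PCR copies are included. Confidence intervals come from edgeR's standard errors, which include the spread between libraries.

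The tests ran in edgeR 4.0.16 under R 4.3.3 (genes kept by filterByExpr at a minimum of 10 counts, TMM, quasi-likelihood test, 1 fit over all 6 libraries, Benjamini-Hochberg adjustment over 17686 genes, threshold 0.05). The test was checked on counts simulated with the spread estimated from these libraries, which does not test that spread. SE is the log2 fold change divided by the square root of F. Positions, transcripts and copies came from GENCODE 29, and primer sequences from the study's supplement. Per-length levels used each gene's reference transcript. The members, the lists of other genes and the tests were chosen with earlier results of these data known. Named by rule were all members, METTL3, METTL14, PPARGC1A, the 2 largest changes called in each list with at least 10 reads in every library, defining genes near 0, and the 2 genes most like each called member. Alternatives were DESeq2 1.42.0, other scalings, no filter, a fit of the 2 compared groups, replicate number as block, a GC and length correction (mgcv 1.9.3, 94.21% of tested genes with values), reads of copies added, and each library left out. Same-numbered libraries did not deviate together (correlations of 0.0614, 0.00511 and -0.0200 between groups), so the numbers were not taken as pairs. Some genes and sequences that meet these rules are not reported here.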

Additional observations from a re-analysis of the deposited data

Results flagged for a closer look

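The effects of the knockdowns differed by their direct test for 2 members. For SOD1 the difference of log2 fold changes, shMETTL3 minus shMETTL14, was -0.20 (edgeR, adjusted p = 0.0268), with both shMETTL3 libraries below both shMETTL14 libraries. For UCP2 it was 0.31 (edgeR, adjusted p = 0.00706), with both shMETTL3 libraries above both shMETTL14 libraries. Neither call held with every library left out in turn, where the differences ran from -0.23 to -0.17 for SOD1 and from 0.24 to 0.37 for UCP2. In the fit of all 6 libraries METTL3 was at 0.549 of its control level in shMETTL3 and METTL14 at 0.589 in shMETTL14. The part of the strength of each knockdown was not tested.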

How the results depend on the processing

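A single member's or target's fold change was set against its value under another setting in 345 comparisons. Of these, 323 kept their side of the threshold, 13 lost the threshold, 9 gained it and 0 of the called ones changed sign. The 323 include values near 0 that were called in neither fit and changed sign, such as GPX4 in shMETTL3. DESeq2 called 1752 genes in shMETTL3, 713 in shMETTL14 and 1243 between the knockdowns, against 2912, 1184 and 2148 with edgeR, and the same numbers of members. Without the filter on low counts 766 genes were called in shMETTL14. Library size alone gave 1 member instead of 2 between the knockdowns (SOD1 lost) and moved the split of all calls in shMETTL3 from 1544 higher and 1368 lower to 2158 and 858, in shMETTL14 from 607 and 577 to 743 and 443, and between the knockdowns from 1177 and 971 to 1399 and 754. The GC and length correction called 5 members in shMETTL3 (SOD2 and GPX8 added) and 2 in shMETTL14 (SOD2 added), and GPX4 was called between the knockdowns (-0.16). With the replicate block and this correction together the members called were again 5 and 2, and 2171 genes in shMETTL14 and 3606 between the knockdowns. The replicate block alone gave 3264, 1459 and 2478 genes and changed no call of a member.

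With each library left out, the genes called ranged from 1102 to 3569 in shMETTL3, from 341 to 1913 in shMETTL14 and from 942 to 2953 between the knockdowns, and the members called from 2 to 3, from 0 to 2 and from 0 to 2. Counts of all genes moved over 1.5 times without shMETTL3 replicate 1 (1503 in shMETTL3, 1123 between the knockdowns) or 2 (1102 and 968), without shMETTL14 replicate 1 (341 in shMETTL14, 942 between the knockdowns) or 2 (397 and 987), and without shCTR replicate 2 (1913 in shMETTL14). These fits have fewer samples. Where edgeR called 0 members, 1 to 3 had an unadjusted p under 0.05. A group left with 1 library was assumed to vary like the others. GPX1, GPX7 and PPARGC1A had too few reads to test.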
